A study of Mus musculus with 18 samples.

Results

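Killer cell lectin-like receptors (Klr receptors) are C-type lectin-like proteins of the cell surface, and 8 of their genes among the 34162 genes of the table are described here: Klrg1, Klrd1, Klre1, Klrc1, Klrc2, Klrk1, Klra4 and Klrb1c. They were chosen by name from the Klr family, with their levels and genotype differences in these libraries already known, so the values are a description and no test of them is read as support. All 8 lie on mouse chromosome 6 (GRCm38). Klrg1 lies apart at chr6:122270596-122282882 on the minus strand, and the other 7 lie in the natural killer gene complex, between Klrb1c at chr6:128778485-128789215 and Klra4 at chr6:130043731-130067271, both on the minus strand.

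Each library holds the messenger RNA of roughly 500 sorted CD4+ effector T cells, taken at week 3 after T cell transfer into Rag-deficient mice, hosts that cannot form lymphocytes with antigen receptors. The cells were either wild type, from C57BL/6 mice carrying the congenic marker CD45.1, or CAR-deficient, from C57BL/6 Nr1i3-/- mice, which lack the constitutive androstane receptor, a nuclear receptor that senses foreign compounds. Both genotypes were recovered from spleen, from colon lamina propria (cLP) and from small intestine lamina propria (siLP), the connective tissue under the gut epithelium, which gives 6 groups of 3 libraries and 18 libraries in all. The hosts, their ages and whether both genotypes shared a host are not given in the sources used here.

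Klr receptors tune the killing and the activation of natural killer (NK) cells, and effector T cells take up several of them late in their response. Klrd1 encodes CD94, which pairs with NKG2A (Klrc1) into a receptor that inhibits and with NKG2C (Klrc2) into one that activates, both reading the class I molecule Qa-1. Klrk1 encodes NKG2D, which signals through the adaptor Hcst, Klrg1 binds cadherins and marks terminally differentiated effector cells, the Klra genes encode the Ly49 receptors for class I molecules, and Klrb1c encodes NK1.1.

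Levels are estimated counts scaled to library size (CPM, with sizes adjusted by the trimmed mean of M-values, TMM). The total estimated count of a library was between 19605135 and 25436389. The floor was set at 3 counts in a library, which is 0.108 CPM in the deepest and 0.185 CPM in the shallowest by adjusted size. The libraries of a group are called a, b and c in the order of their columns, since the columns carry no replicate number. Differences are log2 fold changes ± standard error (SE) from an edgeR quasi-likelihood fit to 14876 genes that passed a filter on low counts. A gene was called at an adjusted p under 0.05 over all of them. All 8 Klr genes passed the filter. Whether the 3 libraries of each group stem from different animals is not stated, so errors and p-values measure only the spread between these libraries. In bulk RNA, fewer cells with a transcript and less of it per cell cannot be told apart.

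Several libraries stood apart. The 6 libraries a were the poorest in genes, with 15466 to 16128 detected where b and c had 17013 to 18819, and their mitochondrial share was 3.70% to 3.98% where b and c had 2.23% to 3.22%. A single T cell receptor segment, Trbv26, dominated wild type libraries a and b of every organ, where it held 52.2% to 72.9% of the counts of all beta V segments. It held at most 0.729% in wild type libraries c and at most 0.479% in CAR-deficient libraries. Results are therefore also given without those 6 wild type libraries, an alternative chosen after seeing the data. That alternative leaves only wild type library c in each organ, so its errors and p-values hold no spread among wild type libraries. Nr1i3, the deleted gene, did not separate the labels, since it was at or above the floor in 4 of 9 wild type and 4 of 9 CAR-deficient libraries. It had 36, 0 and 7 counts in wild type spleen and 0, 14 and 14 in CAR-deficient spleen. In cLP it had 0, 0 and 10 counts with the wild type label and 0, 29 and 1 with the CAR-deficient label. In siLP these were 0, 5 and 0 against 196, 0 and 0. Gene counts do not show whether such reads lie in the deleted part, so all genotype differences below hold for the libraries as labelled. The sort was for CD4+ cells, and 8 T cell markers summed to 7819 to 17198 CPM in every library.

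In spleen, Klrg1, Klrd1, Klre1, Klrk1 and Klra4 were each higher in all 3 CAR-deficient libraries than in any wild type library. Klre1 differed most among the genes present in both genotypes, and Klrc1, the inhibitory partner of Klrd1, did not follow. Without overlap and in the same direction stood 5 of the 8 Klr genes, and 3.23% of all genes tested did so. None of the 8 was called by edgeR in spleen, where 0% of all genes were. At an unadjusted p under 0.05 there were 5 of the 8 and 290 of all 14876 genes. DESeq2's Wald test called 3 of the 8 (Klrg1, Klre1 and Klra4) and 17 genes in all. The median log2 fold change of the 8 was 3.07 in spleen, against 0.01 over all genes tested. It was 3.05 without wild type libraries a and b, but single genes moved. Klrb1c turned from −1.08 to 7.89, with no count in wild type spleen c. Klrg1, Klrd1 and Klrk1 fell to 1.23, 1.92 and 2.32, and Klre1 rose to 5.06.

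Klrg1 (ENSMUSG00000030114), the marker of terminally differentiated effector cells, was well expressed in every library. Wild type spleen libraries a, b and c had 58.1, 140 and 163 CPM of Klrg1 and the CAR-deficient ones had 258, 317 and 570 CPM. The lowest CAR-deficient spleen library thus lay above the highest wild type one, and the log2 fold change was 1.66 ± 0.38. In cLP, Klrg1 had 87.7, 141 and 86.4 CPM in the wild type group against 130, 140 and 174 CPM in the CAR-deficient group. In siLP it had 110, 178 and 151 CPM in the wild type group against 161, 177 and 207 CPM in the CAR-deficient group. The genotypes overlapped in both gut sites, where the log2 fold changes were 0.49 ± 0.37 and 0.31 ± 0.37. Without wild type libraries a and b the Klrg1 differences were 1.23 in spleen, 0.78 in cLP and 0.27 in siLP.

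Klrd1 (ENSMUSG00000030165, chr6:129591782-129598775, plus strand), the CD94 chain shared by both NKG2 receptors, varied widely among wild type libraries. Its wild type spleen libraries had 4.7, 12.4 and 62 CPM and the CAR-deficient ones 301, 148 and 257 CPM. All CAR-deficient spleen libraries exceeded the highest wild type library, with a log2 fold change of 3.16 ± 1.16. In cLP, Klrd1 had 52.2, 6.51 and 75.7 CPM in the wild type group against 246, 73.5 and 114 CPM in the CAR-deficient group. The groups overlapped there only through wild type c and CAR-deficient b, which lay close together. In siLP, Klrd1 had 8.65, 5.85 and 140 CPM in the wild type group against 106, 100 and 91.6 CPM in the CAR-deficient group. Wild type c was thus the highest siLP library of either genotype, while a and b lay far below every CAR-deficient one.
The Klrd1 difference in siLP was 0.95 ± 1.07, it became 3.78 when wild type c was left out, and it was −0.50 when a and b were left out. In spleen the difference without wild type a and b was 1.92, and without wild type c it was 4.78.

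Klre1 (ENSMUSG00000050241, chr6:129577905-129585827, plus strand) encodes a receptor chain first known from NK cells and stands next to Klrd1 on the chromosome. In spleen it had 6.77, 3.92 and 3.33 CPM in the wild type group against 148, 82.1 and 104 CPM in the CAR-deficient group. Here the 3 wild type libraries lay close together, library c included, and far below the other genotype. The log2 fold change of Klre1 in spleen was 4.58 ± 1.2, and 5.06 without wild type libraries a and b. In cLP, wild type libraries had 10.2, 0.797 and 5.67 CPM of Klre1 and CAR-deficient ones 24.2, 8.03 and 7.13 CPM. In siLP, wild type libraries had 0.406, 0.577 and 15 CPM of Klre1 and CAR-deficient ones 37.9, 35.9 and 14.7 CPM. Both gut sites overlapped, in siLP only because wild type c was level with CAR-deficient c. The log2 fold changes of Klre1 were 1.24 ± 1.05 in cLP and 2.47 ± 1.09 in siLP, and the siLP value became 5.89 without wild type c and 0.98 without wild type a and b.

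Klrk1 (ENSMUSG00000030149, chr6:129610323-129623864, minus strand), the gene of NKG2D, had 5.67, 9.53 and 16.8 CPM in the wild type spleen group, against 74.8, 92.6 and 83.8 CPM in the CAR-deficient one. The CAR-deficient spleen libraries were close together and all above wild type, with a log2 fold change of 2.97 ± 1.59. In cLP, Klrk1 had 50.9, 9.8 and 85.5 CPM in the wild type group against 0, 33.9 and 114 CPM in the CAR-deficient group, a range as wide within each genotype as between them. In siLP it had 0.0901, 7.14 and 56.2 CPM in the wild type group against 32.2, 40.7 and 71.6 CPM in the CAR-deficient group. The log2 fold changes of Klrk1 were 0.02 ± 1.47 in cLP and 1.19 ± 1.49 in siLP. The cLP CAR-deficient library a, with no count of Klrk1, had 246 CPM of Klrd1. Without that library the cLP difference of Klrk1 was 0.59, and without CAR-deficient c it was −1.52. The siLP difference was 3.73 without wild type c and −0.22 without wild type a and b.

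**Figure D1:**
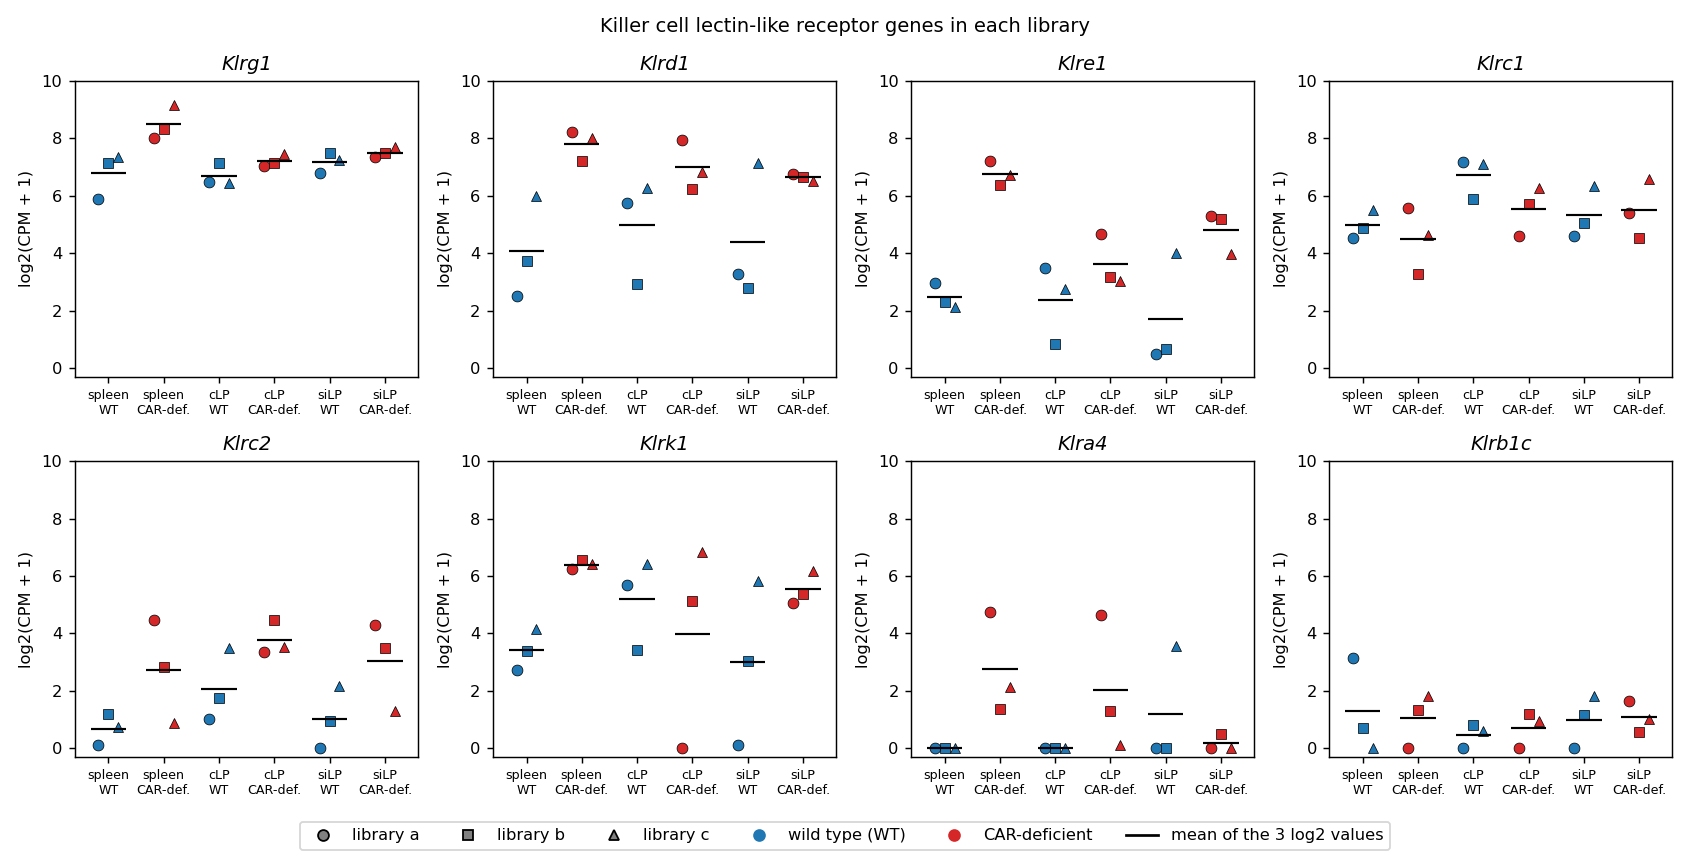
Level of each of the 8 Klr genes as log2(CPM + 1) in each of the 18 libraries, by organ and genotype (WT, wild type in blue; CAR-def., CAR-deficient in red); the marker shape gives the library and the bar the mean of the 3 log2 values. In spleen the red points of Klrg1, Klrd1, Klre1, Klrk1 and Klra4 lie above every blue one, and in siLP the wild type library c (triangle) stands near the red points for Klrd1, Klre1 and Klrk1.

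Klrc1 (ENSMUSG00000030167, chr6:129666015-129678973, minus strand), the inhibitory NKG2A chain, had its highest group in wild type cLP. Its spleen libraries had 21.8, 28.3 and 44.8 CPM in the wild type group against 46.2, 8.74 and 23.9 CPM in the CAR-deficient group. The cLP libraries had 145, 58.9 and 136 CPM of Klrc1 in the wild type group against 23.2, 51.5 and 76.2 CPM in the CAR-deficient group. The siLP libraries had 23, 32.3 and 80.9 CPM of Klrc1 in the wild type group against 41.2, 21.9 and 94.7 CPM in the CAR-deficient group. The genotypes overlapped in every organ, with log2 fold changes of −0.27 ± 0.66, −1.17 ± 0.67 and 0.21 ± 0.66. The spleen value of Klrc1 was 0.15 without CAR-deficient b, and the siLP value was −0.53 without CAR-deficient c. Klrc1 alone among the 8 was higher in every wild type cLP library than in any wild type spleen library (log2 fold change 1.84 ± 0.68), as 8.09% of all genes tested were. None of the 8 was called in that comparison, against 0.376% of all genes.

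Klrc2 (ENSMUSG00000052736, chr6:129647496-129660689, minus strand), the activating NKG2C chain, was low in wild type libraries. In spleen it had 0.0921, 1.27 and 0.674 CPM in the wild type group against 21.2, 6.06 and 0.861 CPM in the CAR-deficient group. In cLP it had 1.01, 2.34 and 10.2 CPM in the wild type group against 9.24, 21 and 10.4 CPM in the CAR-deficient group. In siLP it had 0, 0.938 and 3.44 CPM in the wild type group against 18.8, 10.4 and 1.46 CPM in the CAR-deficient group. A CAR-deficient library reached down into the wild type range of Klrc2 in each organ, namely c in spleen and siLP and a in cLP. The log2 fold changes of Klrc2 were 3.78 ± 1.55, 1.59 ± 1.41 and 2.8 ± 1.48. The spleen value was 2.33 without CAR-deficient a, and the values in cLP and siLP were 3.01 and 4.41 without wild type c. With wild type a and b left out they were 0.42 in cLP and 1.57 in siLP.

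Because Klrd1 pairs with both NKG2 chains, their levels were set side by side per length, as CPM divided by the median length of the gene's coding transcripts in kilobases. On this scale the share of Klrc2 in the sum of Klrc1 and Klrc2 was at most 4.87% in the 9 wild type libraries. It ran from 1.05% to 32.2% in the 9 CAR-deficient ones, where spleen c (2.41%) and siLP c (1.05%) lay within the wild type range and the other 7 above it. The ratio of Klrd1 to Klrc1 per length was 0.181, 0.368 and 1.17 in wild type spleen and 5.48, 14.2 and 9.04 in CAR-deficient spleen. For cLP the ratio was 0.302, 0.0931 and 0.468 in the wild type group, against 8.93, 1.2 and 1.26 in the CAR-deficient group. Every CAR-deficient library of spleen and cLP thus had more Klrd1 per Klrc1 than any wild type library of its organ. For siLP the ratio was 0.316, 0.152 and 1.46 in the wild type group, against 2.17, 3.85 and 0.814 in the CAR-deficient group, and the groups overlapped through both libraries c. Over the 18 libraries the log2 CPM of Klrd1 and Klrc1 were correlated with r = 0.08, and those of Klrd1 and Klre1 with r = 0.83, points that share library, depth and group.

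Klrc1 and Klrc2 share much of their sequence, which limits how well counts can be split between them. The coding sequences of transcripts Klrc1-201 and Klrc2-202 (GENCODE vM21, without the stop codon, minus strand of chromosome 6) hold 732 and 714 bases and are identical at 593 of 714 aligned bases. Their last 150 coding bases are printed to show this, with the bases that differ in capitals.
Klrc1: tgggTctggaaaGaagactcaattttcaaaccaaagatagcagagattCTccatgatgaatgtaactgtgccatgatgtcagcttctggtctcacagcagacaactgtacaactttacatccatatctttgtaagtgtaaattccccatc
Klrc2: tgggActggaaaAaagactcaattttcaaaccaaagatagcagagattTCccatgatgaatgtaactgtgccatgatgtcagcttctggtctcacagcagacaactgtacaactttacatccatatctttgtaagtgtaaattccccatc
They differ at 4 bases, and the last 100 bases are the same in both. Of all 31-base words in the annotated transcripts of Klrc1, 46.9% occur in no other gene and 49.6% also occur in Klrc2. Of the words of Klrc2, 78.4% occur in no other gene. Values of Klrc1 and Klrc2 are therefore uncertain where reads fell on the shared stretch. The words of Klrg1 and Klrd1 are all their own, and those of Klrk1 and Klre1 are so for 99.99% and 99%.

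**Figure D2:**
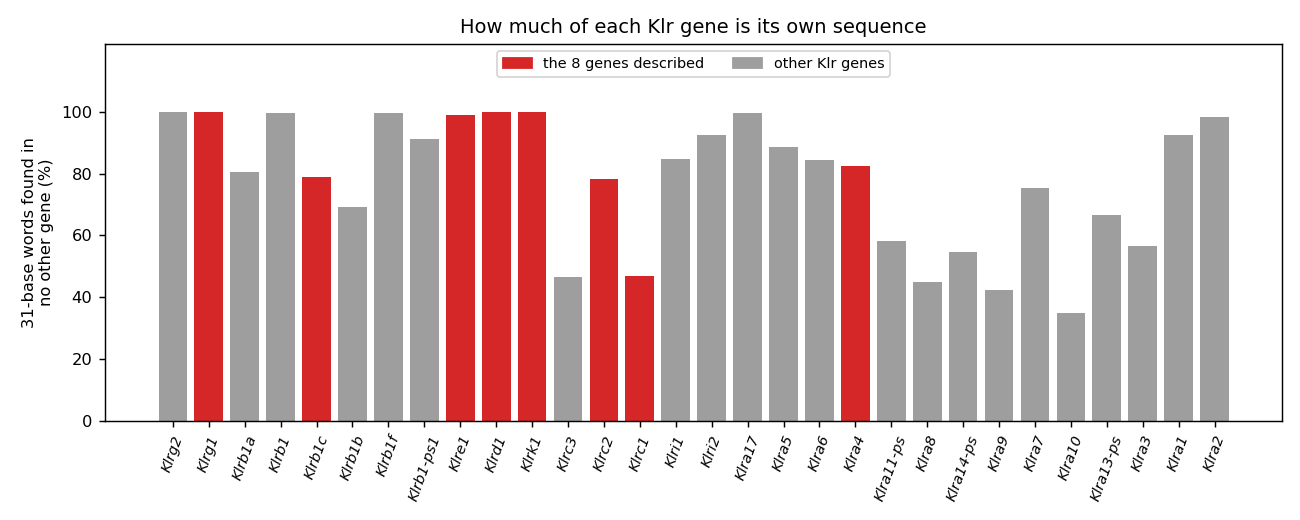
Share of the 31-base words of each Klr gene's annotated transcripts that occur in no other gene, in percent, with genes in chromosomal order, the 8 genes described in red and other Klr genes in grey. Klrg1, Klrd1, Klre1 and Klrk1 stand at 99% or more, while Klrc1 stands at 46.9% and the Klra genes range down to 34.9% for Klra10.

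Klra4 (ENSMUSG00000079852), which encodes a Ly49 receptor, had no count in any wild type library of spleen or cLP. CAR-deficient spleen libraries had 25.7, 1.6 and 3.4 CPM of Klra4, and CAR-deficient cLP libraries 23.9, 1.43 and 0.0875 CPM. Against the mean floor of 3 counts per library, the CAR-deficient mean was at least 79.3-fold higher in spleen and at least 57.1-fold higher in cLP, both carried mostly by library a. In siLP the order was the other way, with 0, 0 and 10.9 CPM in the wild type group against 0, 0.421 and 0 CPM in the CAR-deficient group. The cLP CAR-deficient library c was under the floor for Klra4. In cLP, Klra4 was the single gene of the 8 whose genotypes did not overlap, against 4.09% of all genes tested, and in siLP there was none of the 8, against 3.8% of all genes.

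Other Ly49 genes were as patchy as Klra4. Of 11 protein-coding Klra genes, 0, 4 and 1 were at or above the floor in wild type spleen libraries a, b and c, against 6, 10 and 6 in the CAR-deficient ones. In cLP these numbers were 2, 2 and 2 against 6, 5 and 3, and in siLP 1, 2 and 6 against 6, 4 and 2. CAR-deficient spleen libraries thus had more Klra genes at or above the floor than the wild type ones, and siLP wild type c was the wild type library with most. Since these genes share sequence, that number need not be the number of separate genes expressed. A matching share of all genes was not counted. The gene with most Klra counts also changed from library to library. In CAR-deficient spleen it was Klra1 in a (42.2% of Klra counts), Klra7 in b (47.0%) and Klra3 in c (73.4%), and Klra3 led in all 3 wild type cLP libraries. Klra1 had no count in wild type spleen and cLP, and 39.6, 7.28 and 0 CPM in CAR-deficient spleen. Neighbouring Ly49 genes share sequence, with 82.5% of the 31-base words of Klra4 and 42.2% of those of Klra9 found in no other gene, so the split among them is uncertain.

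Klrb1c (ENSMUSG00000030325), the gene of NK1.1, was at most 7.88 CPM in all 18 libraries. Spleen had 7.88, 0.613 and 0 CPM in the wild type group against 0, 1.5 and 2.49 CPM in the CAR-deficient group. It was at most 1.28 CPM in cLP and at most 2.55 CPM in siLP, and the genotypes overlapped in all organs. Per length, in CPM per kilobase (mean ± SD, n = 9 libraries per genotype), the order in wild type cells was Klrg1 (87.7 ± 28.6), Klrc1 (84.3 ± 63.4), Klrd1 (45.7 ± 51.8), Klrk1 (21.1 ± 23.5), Klre1 (4.01 ± 3.79), Klrc2 (2.02 ± 2.89), Klrb1c (1.17 ± 1.97) and Klra4 (0.976 ± 2.93). In CAR-deficient cells the order was Klrd1 (178 ± 94.8), Klrg1 (168 ± 97.7), Klrc1 (57.2 ± 37.1), Klrk1 (47.5 ± 28.2), Klre1 (39.7 ± 38.1), Klrc2 (10.1 ± 7.12), Klra4 (5.05 ± 8.49) and Klrb1c (0.852 ± 0.68). Klrd1 thus stood below Klrc1 in wild type and above it in CAR-deficient cells, and most neighbours in either order differed by less than their SDs.

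**Figure D3:**
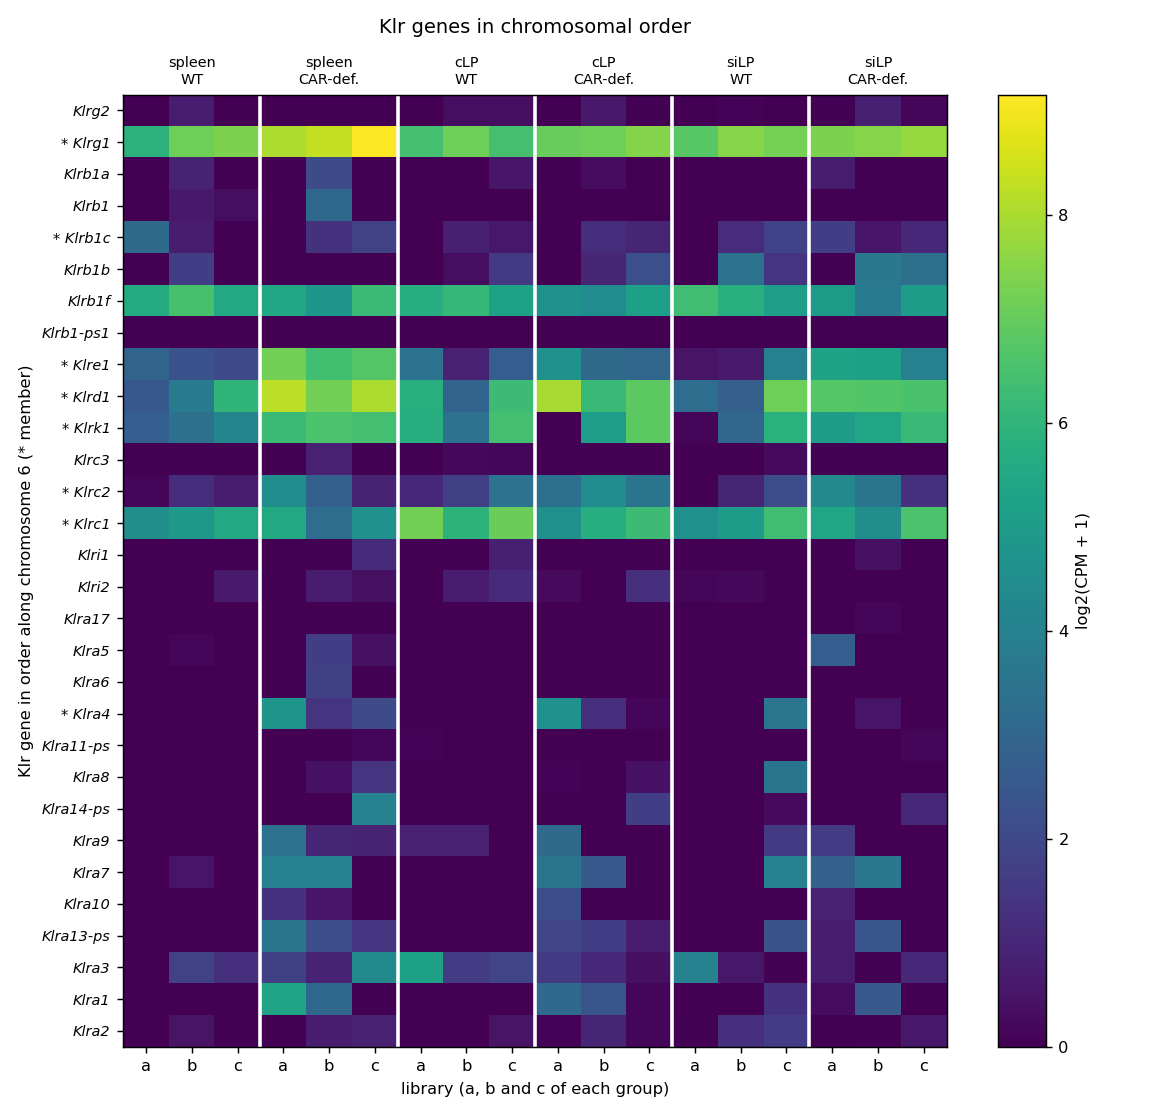
Level of each measured Klr gene as log2(CPM + 1), in colour, with genes in chromosomal order from top to bottom and the 18 libraries by group from left to right (WT, wild type; CAR-def., CAR-deficient); an asterisk marks the 8 genes described. Klrg1, Klrb1f, Klrc1, Klrd1 and Klre1 are present in every library. Klre1, Klrd1 and Klrk1 form a bright block in CAR-deficient spleen, and the Klra genes at the bottom light up in single libraries.

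Among the other Klr genes, 18 of the 19 listed were in the table and 11 passed the filter. edgeR called none of the 11 in any of the 10 comparisons. At an unadjusted p under 0.05 between genotypes there were 2 in spleen, 3 in cLP and 1 in siLP, where 290, 363 and 641 of all 14876 genes were. DESeq2, which gave an adjusted p to 5 to 9 of the 11, called Klra7 in 4 comparisons, among them the genotype difference in cLP and the genotype average. Klrb1f was the one with a steady level, and in spleen it had 48.9, 89 and 44.9 CPM in the wild type group against 43.5, 26.8 and 75 CPM in the CAR-deficient group. In siLP it had 81.2, 52.7 and 32.8 CPM in the wild type group against 31, 12.9 and 32.7 CPM in the CAR-deficient group. All 3 CAR-deficient siLP libraries thus lay below every wild type one, though both libraries c were almost level. The genotypes overlapped for Klrb1f in spleen, and for Klrd1 and Klre1 in siLP. The log2 fold change of Klrb1f in siLP was −1.12 ± 0.47, which edgeR did not call, and −0.36 without wild type a and b. In cLP, Klrb1f had 51.8, 67.7 and 37.2 CPM in the wild type group. The CAR-deficient group had 24.3, 21.1 and 34.9 CPM, also without overlap. The share of all genes that were lower without overlap was not counted between genotypes. Klrb1b reached 11.8 CPM in a CAR-deficient siLP library and had no count in the 3 CAR-deficient spleen libraries.

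Averaged over the organs, the genotype difference was 0.82 ± 0.21 for Klrg1, 1.93 ± 0.64 for Klrd1, 2.76 ± 0.64 for Klre1, 2.72 ± 0.85 for Klrc2, 1.39 ± 0.86 for Klrk1 and −0.41 ± 0.38 for Klrc1 (log2 fold change ± SE, 9 libraries per genotype). The fit took these 9 libraries as independent. Whether libraries of different organs came from the same animals is not stated, so these SEs and p-values may not cover the spread between animals. None of the 8 was called by edgeR, where 0.0134% of all genes were. At an unadjusted p under 0.05 there were 5 of the 8 and 859 of all genes. DESeq2 called 4 of the 8 and 123 genes in all. The median log2 fold change of the 8 was 1.66, against −0.01 over all genes. Without wild type libraries a and b the averages were 0.76 for Klrg1, 0.79 for Klrd1, 2.42 for Klre1, 1.92 for Klrc2, 0.43 for Klrk1 and −0.94 for Klrc1. Leaving out single libraries gave Klre1 averages from 2.50 to 3.90. The highest was without siLP wild type c, the wild type siLP library with most Klre1, and edgeR called it there (adjusted p = 0.0102). How many of all genes were called in that refit is not given here. Over all 25 alternatives the Klre1 average ran from 2.42 to 3.90, with adjusted p from 0.000669 (DESeq2) to 1 (edgeR without wild type a and b). Without the siLP library labelled CAR-deficient a, the Klre1 average was 2.69.

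The wild type libraries with and without the Trbv26 expansion differed most in siLP. Wild type c had the highest wild type level of 4 of the 8 Klr genes in spleen, 3 in cLP and 7 in siLP. All 3 CAR-deficient libraries exceeded wild type c for 6 of the 8 genes in spleen, 3 in cLP and 1 in siLP. The median log2 fold change of the 8 genes in siLP was 0.63 with all libraries and −0.36 without wild type a and b, while in cLP it was 1.02 and 0.67. In siLP the wild type libraries with a high share of Trbv26, a and b, had the lowest levels of Klrd1, Klre1 and Klrk1. The part of Trbv26 in the genotype differences was not tested.

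**Figure D4:**
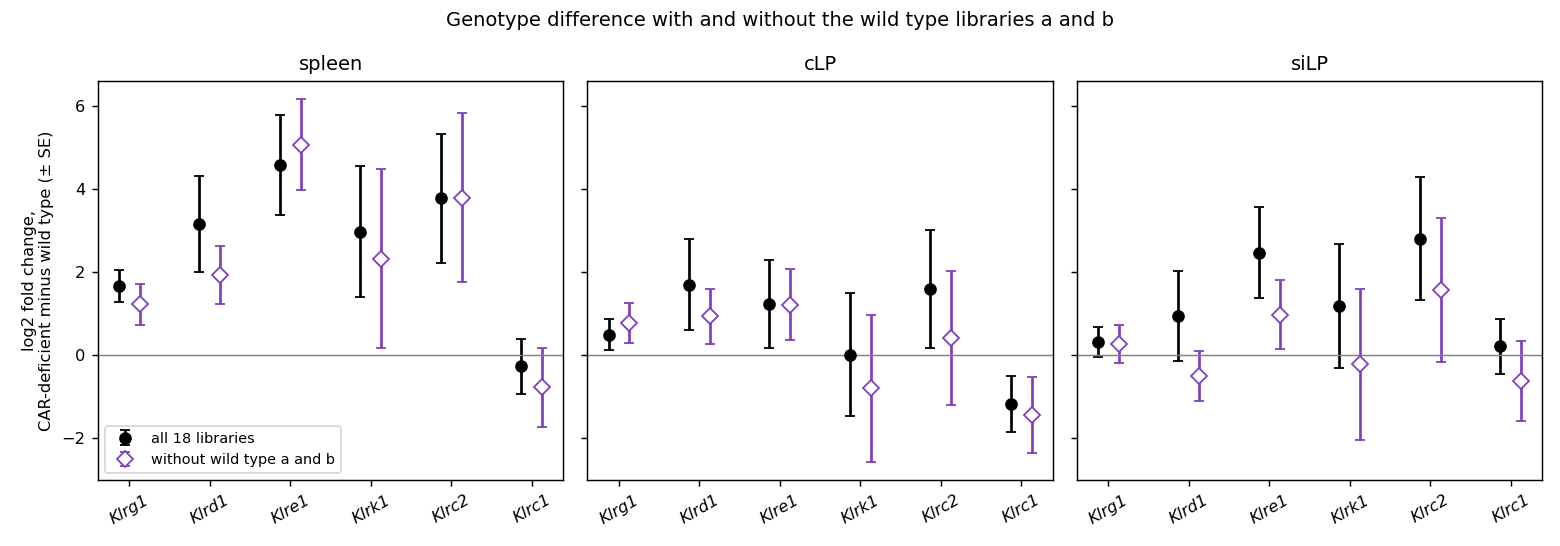
Log2 fold change of CAR-deficient over wild type cells for 6 Klr genes in spleen, cLP and siLP, with bars of 1 SE, from all 18 libraries (filled circles) and with wild type a and b of each organ left out (open diamonds). In spleen Klre1 stands at 4.58 and 5.06, while in siLP Klrd1 moves from 0.95 to −0.50. The bars of the open diamonds hold no spread among wild type libraries, since only wild type c was left in each organ.

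Between organs, the highest group mean of Klrg1, Klrd1, Klre1, Klrk1 and Klra4 was CAR-deficient spleen. Within CAR-deficient cells, Klrg1 and Klre1 were lower in every cLP library than in any spleen library, as 6.43% of all genes tested were, with log2 fold changes of −1.37 ± 0.37 and −3.09 ± 1.12. In siLP, 5 of the 8 (Klrg1, Klrd1, Klre1, Klrk1 and Klra4) were lower in every library than in any spleen library, as 5.18% of all genes were. edgeR called none of the 8 in either comparison, against 0.484% and 0.215% of all genes. At an unadjusted p under 0.05 there were 2 and 1 of the 8, and 1516 and 1057 of all 14876 genes. In cLP, DESeq2 called Klrg1 and voomWithQualityWeights called Klrg1 and Klre1, while neither called any of the 8 in siLP. With the column ending (a, b or c) fitted as a block, edgeR also called Klrg1 in cLP and none of the 8 in siLP. All of these settings also called more of all genes in cLP than edgeR without the block, by the counts given at the end. In wild type cells edgeR called none of the 8 between siLP and spleen (0.188% of all genes), with 1 of the 8 and 676 of all 14876 genes at an unadjusted p under 0.05. DESeq2 called Klra4 there, which had counts only in siLP library c.

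The difference of the genotype effect between gut and spleen was tested in the same fit, with both gut sites averaged. It was −1.26 ± 0.45 for Klrg1, −2.72 ± 1.3 for Klre1, −1.84 ± 1.32 for Klrd1 and −2.37 ± 1.84 for Klrk1 on the log2 scale. Without siLP wild type c the value of Klre1 was −1.02. None of the 8 and 0% of all genes were called, and 1 of the 8 and 228 of all genes had an unadjusted p under 0.05, so the genotype effect on the Klr genes was not shown to differ between spleen and gut. Between siLP and cLP, averaged over genotypes, edgeR called none of the 8 and 0% of all genes, and no Klr gene of the 8 had an unadjusted p under 0.05.

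The genes around the receptors were counted from lists chosen with earlier results known. Of 20 adaptors and proximal signalling genes, 19 passed the filter and edgeR called none in any of the 10 comparisons. Hcst, which carries the signal of NKG2D, had 689 to 2702 CPM per kilobase in all 18 libraries, and Tyrobp, the adaptor of activating Ly49 and NKG2C receptors, had 0 to 32.8 CPM per kilobase. Pik3cd, the delta subunit of phosphoinositide 3-kinase, came nearest in the genotype average at 0.56 ± 0.14 (edgeR, adjusted p = 0.262), and DESeq2 called it. Of 16 ligand genes 13 passed the filter and edgeR called none in any comparison. Clec2g, a lectin-like gene of the same complex, had the smallest p of the ligands in the genotype average, at 4.91 ± 1.08 (edgeR, adjusted p = 0.195), and DESeq2 called it there. Its level was at most 0.164 CPM in wild type and between 0 and 3.24 CPM in CAR-deficient libraries.

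Of 28 effector and terminal differentiation genes, all passed the filter and edgeR called none between genotypes, while DESeq2 called Gzma in spleen and Gzma, Il18rap, Zeb2 and Cx3cr1 in the genotype average. In spleen 25 of the 28 had a log2 fold change above 0 and 3 below, with a median of 0.71 against 0.01 over all genes tested. Gzmk, also of the list, had a lower group mean with CAR deficiency in every organ. Its wild type and CAR-deficient means were 1119 and 630 CPM in spleen. They were 996 and 573 CPM in cLP and 983 and 613 CPM in siLP. Gzma, a granule protease, had 102, 69.2 and 345 CPM in the wild type group against 2792, 804 and 2629 CPM in the CAR-deficient group, without overlap, and its genotype average was 2.76 ± 0.47 (edgeR, adjusted p = 0.113). Zeb2, a transcription factor of terminal effector cells, averaged 1.76 ± 0.34 (edgeR, adjusted p = 0.152). The transcription factor Bhlhe40 was called higher in both gut sites than in spleen in both genotypes, with log2 fold changes of 1.92 to 2.77. Of 12 memory and progenitor genes, 12 passed the filter and edgeR called none in any comparison.

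Genes that lie among the Klr genes did not share one direction. Between Klrb1a and Klra2, 65 measured genes are not Klr genes, and 14 of them passed the filter. edgeR called none of them between genotypes. Cd69, an early activation and tissue retention receptor encoded in this stretch, was called higher in gut than in spleen in all 4 organ comparisons of a single genotype, with log2 fold changes of 2.99 to 3.34, while edgeR called none of the 8 Klr genes there.

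The genes most like each receptor were named by the highest Pearson correlation of log2 CPM over the 18 libraries among genes with a group mean of at least 5 CPM. The points share library, depth and group, so these values are a description. For Klrg1 it was Cx3cr1 (r = 0.89), a chemokine receptor of effector cells, and for Klrd1 it was Gzma (r = 0.90). Klre1 was most like Klrd1 (r = 0.83), Klrk1 was most like Tktl1 (r = 0.92) and Itga2 (r = 0.91), and Klrc1 was most like Cd55 (r = 0.78). Klra4 was most like its neighbours Klra13-ps (r = 0.87) and Klra1 (r = 0.81). With the mean z-score of all 8 genes, the closest gene outside the family was Tmem37 (r = 0.85).

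Markers of NK cells and type 1 innate lymphoid cells, a list of 8 that contains Klrb1c itself, summed to 118 to 216 CPM in wild type and 131 to 180 CPM in CAR-deficient spleen. In cLP the sums were 74.2 to 225 CPM and 101 to 167 CPM, and in siLP 169 to 206 CPM and 119 to 133 CPM. Most of the sum came from Eomes and Klrb1f, which effector T cells also express, so it says little about NK cells. Of the 8 markers, 5 reached the floor in at least 1 wild type spleen library and all 8 did so in CAR-deficient spleen. The other 3 were Ncr1, Klra8 and Klra9, each without a count in the 3 wild type spleen libraries. In CAR-deficient spleen a, b and c, the NK receptor Ncr1 had 0, 0.423 and 4.26 CPM. There Klra8 had 0, 0.376 and 1.59 CPM, and Klra9 had 9.86, 0.987 and 0.861 CPM. Tyrobp, also of this list, had 0, 6.87 and 10.2 CPM in wild type spleen, against 9.8, 7.66 and 12.9 CPM with CAR deficiency. Ncr1, Klra8 and Klra9 were thus low, with their spleen counts on the same side as the higher Klrd1 and Klre1 levels, and the genotypes overlapped for Ncr1, Klra8 and Tyrobp. In siLP, Klra8 reached 10.8 CPM in wild type c, the siLP library with the highest Klrd1. Ncr1 had 0, 2.74 and 3.62 CPM in wild type siLP, where b had the lowest Klrd1 of all siLP libraries. With CAR deficiency it had 0, 1.98 and 0 CPM there. Tyrobp had 3.29, 6.5 and 19 CPM in wild type siLP, against 8.09, 1.6 and 2.8 CPM with CAR deficiency. Both thus had the higher group mean in wild type siLP, opposite to spleen. Fcer1g, also of this list, had 10.9, 21.6 and 10.8 CPM in wild type siLP, against 10.3, 19.8 and 13.5 CPM with CAR deficiency. Ncr1 was at 0 in 12 of the 18 libraries. The CD8 genes Cd8a and Cd8b1 summed to at most 11.8 CPM. Trdc, of gamma delta T cells, reached 37.2 CPM in wild type cLP b. The 4 myeloid markers summed to 32.9 to 124 CPM in wild type siLP and 25.2 to 45.5 CPM in CAR-deficient siLP. In cLP these sums were 20 to 70.6 CPM and 8.75 to 64.5 CPM, and in spleen they were at most 10.1 CPM. The 3 epithelial markers summed to 6.23 to 17.7 CPM in wild type cLP and 12.7 to 81.7 CPM in CAR-deficient cLP. The part of such cells in the Klr levels was not tested.

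Promoter windows of RefSeq (build GRCm38.p6, 250 bases before to 50 after a start) were present for 6 of the 8 genes, all but Klrg1 and Klrd1. They were searched on both strands for the T-box core GTGTGA, the longer T-box word AGGTGTGA, which contains it, the Runx word TGTGGTT and the GATA word AGATAA. The stretches before the start of Klrk1 and Klrc1 are shown because Klrk1 was higher and Klrc1 was not in CAR-deficient spleen. Capitals mark the Runx word. The windows are chr6:129623865-129624114 for Klrk1 and chr6:129678974-129679223 for Klrc1, both on the minus strand.
Klrk1: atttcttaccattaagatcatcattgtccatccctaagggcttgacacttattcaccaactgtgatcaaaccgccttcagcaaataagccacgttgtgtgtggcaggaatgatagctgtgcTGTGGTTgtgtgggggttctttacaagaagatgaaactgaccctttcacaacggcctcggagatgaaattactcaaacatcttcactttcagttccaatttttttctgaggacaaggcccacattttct
Klrc1: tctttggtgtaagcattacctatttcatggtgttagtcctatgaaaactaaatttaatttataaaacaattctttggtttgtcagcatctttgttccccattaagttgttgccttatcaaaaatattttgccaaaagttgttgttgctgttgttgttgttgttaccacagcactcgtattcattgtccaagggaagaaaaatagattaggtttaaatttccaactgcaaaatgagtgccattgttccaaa
The Runx word began 129 bases before the start of Klrk1 and 229 before the first of the starts of Klre1, and also stood in the window of Klra1. The Klre1 window overlaps the first exon of that gene in GENCODE. The T-box core stood in both windows of Klre1, which overlap and hold the same site, and not in those of Klrk1 or Klrc1. None of the words stood in the windows of Klrc1, Klrc2, Klra4 or Klrb1c. Of these, Klra4 was also higher in CAR-deficient spleen without overlap, and Klrc2 had a log2 fold change of 3.78 there. Among 32851 windows of all genes, 5.27% held the Runx word, 14.5% the T-box core, 1.28% the longer T-box word and 11.2% the GATA word. Of 29 windows of Klr genes, 3 held the Runx word, 4 the T-box core, 0 the longer word and 3 the GATA word. The T-box site of Klre1 is counted in both of its windows. A match is a description of letters and no evidence of binding.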

How the data were processed

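The deposited table gives, per the file headers, estimated counts per Ensembl gene for 18 libraries, and the other 37 columns were not used. Per the submitters' processing notes, Salmon, DESeq2 and mm10 were named, with no versions. No source used here names the annotation. Per the labels' protocols, cDNA came from the SMART-Seq v4 kit and libraries from NEBNext Ultra II DNA, which in its usual form keeps no strand. The CAR-deficient groups were matched to the columns without CD45.1, by elimination.

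The members and gene lists were chosen with earlier results of these data known. Symbols came from GENCODE vM21 (34162 identifiers matched). Counts were rounded, filtered with filterByExpr (6 groups), scaled by TMM and fitted to 6 group means with edgeR 4.0.16 (glmQLFit, glmQLFTest, two-sided, common biological coefficient of variation 0.791) in R 4.3.3. For each of 10 comparisons p-values were adjusted by Benjamini-Hochberg. The SE is the size of the log2 fold change divided by √F. The pipeline was tested on simulated data. Alternatives were DESeq2 1.42.0 size factors and Wald test, limma 3.58.1 voomWithQualityWeights, no filter, only the groups compared, the column ending as a block, and libraries left out. Levels per length used the median length of coding transcripts in GENCODE vM21. Correlations used a prior count of 2. Besides the 8 genes, named genes are Klr genes with a group mean of at least 1 CPM and, per list and comparison, up to 4 called genes or the 2 with the smallest p; the text shortens these sets. The SEs and SDs cover the spread between these libraries, and the floors cover counting error only.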

Additional observations from a re-analysis of the deposited data

How the results depend on the processing

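The count of the 8 Klr genes called by edgeR was 0 in all 10 comparisons, and 247 of 258 alternatives left it there, among them all those with DESeq2 size factors, no filter, only the groups compared, leaving out the 6 libraries a, and leaving out wild type a and b of all organs. DESeq2's Wald test called 3 between genotypes in spleen, 1 in cLP (Klra4), 4 in the genotype average (Klrg1, Klre1, Klrc2 and Klra4), 1 between siLP and spleen in wild type cells (Klra4), 1 between cLP and spleen in CAR-deficient cells (Klrg1) and 1 between siLP and cLP (Klra4). limma's voomWithQualityWeights called 1 in spleen and 1 in the genotype average (Klre1 in both) and 2 between cLP and spleen in CAR-deficient cells (Klrg1 and Klre1). Leaving out single libraries gave 0 to 1 in the genotype average and 0 in the other comparisons. The cause of these changes was not tested.

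With the column ending as a replicate block, 1 of the 8 was called between cLP and spleen in CAR-deficient cells (Klrg1) and 0 in the other 9 comparisons. Of 45 library pairs with the same ending, 41 had deviations from the group means with a correlation over 0.1, and of 90 other pairs 7 did, but the columns carry no replicate numbers that would pair them. Over all genes the block called 7 in the genotype average against 2, 171 against 72 between cLP and spleen in CAR-deficient cells, 77 against 32 for siLP, and 144 against 56 and 64 against 28 in wild type cells. It called 16 against 0 between siLP and cLP.

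Over all genes DESeq2 called 17 in spleen, 12 in cLP, 35 in siLP and 123 in the genotype average, where edgeR called 0, 0, 0 and 2, and voomWithQualityWeights called 5, 3, 2 and 11. Between cLP and spleen in CAR-deficient cells DESeq2 called 456 and voomWithQualityWeights 536, against 72.

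Low counts limit Klra4, Klrb1c and the other Ly49 genes, whose order between groups rests on single libraries. The alternative of the deposited abundances in place of CPM was not run.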
